A study of Homo sapiens with 6 samples.

Results

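The Input RNA of senescent human fibroblasts driven by oncogenic RAS was described here on its own, to show which genes, gene families and secreted factors these cells express and how high. The cells were IMR90, a line of normal fibroblasts grown from human lung. They carried RASV12, an oncogenic form of RAS, and received a synthetic miR-146a carrying psoralen and biotin. Per the labels' protocols, puromycin at 1.5 ug/ml was applied for 3 days, the cells were seeded on day 10 after infection, and the transfection followed 24 hours later. All 3 Input libraries share that RAS form and that mimic, and no library of cells lacking either was used here, so no level below can be attributed to RAS, to senescence or to the mimic. The sources used here do not give how the Input RNA was drawn off or whether the libraries came from separate cultures. The labels do not say which RAS gene RASV12 was. The series also holds 3 miR-CLIP libraries, which were not used here.

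The deposited table held 18234 genes, and a gene was counted as expressed when its value was at least 1 in each of the 3 Input libraries, which are named A, B and C after their columns. This held for 7598 genes, of which 6036 were protein-coding, 1016 were long non-coding RNAs (lncRNAs) and 463 were pseudogenes. Of the 8510 protein-coding genes in the table, 70.9% passed. Counts of passing protein-coding genes in the lists below are to be read against that share. For lncRNAs the matching count was 1016 of 4570. The lists were chosen sets and need not hold every gene of their kind in the table. Each value was a read count of the gene scaled by its library's own factor, and is given below as a normalised read count. 1 read was worth 0.612, 0.832 and 0.867 in A, B and C, so the rule asked for at least 2 reads in every library. The lowest of a gene's 3 values was 1.225 in the 126 expressed genes nearest the limit and 0.867 in the 217 other genes nearest to it. Of the genes outside the rule, 3755 had no read in any library and 6881 had a read in at least 1. A count of 0 allows a level of up to 1.84, 2.495 and 2.60 in A, B and C, which is the value of 3 reads and covers counting error only. The table was a partial one, holding, of the protein-coding genes in GENCODE release 29, 78.1% where the symbol starts with A to L and 8.70% where it starts with M to Z. Families with later initials, such as the matrix metalloproteinases, the serpins and the ribosomal proteins, were therefore not analysed here. The rows held 12771968, 9379996 and 9295325 reads in A, B and C.

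Oncogenic RAS, a small GTPase, drives the kinase chain of RAF, MEK and ERK, and in normal fibroblasts its sustained activity ends in senescence, a lasting arrest of the cell cycle. Senescent cells keep a high metabolism, enlarge their lysosomes and secrete interleukins, chemokines, growth factors and proteases, together known as the senescence-associated secretory phenotype (SASP). Interleukin-1 and the transcription factor NF-kappaB act upstream of many of these factors, and miR-146a is known to restrain that same branch. The mature miRNA that gives the mimic its name is shown because all 3 libraries came from cells given it. Its seed, bases 2 to 8, is in capitals, and the entry is the 5p arm in RefSeq on build GRCh38.p14 (chr5:160485372-160485393, plus strand), while for the mimic itself neither the arm nor the sequence is given in the sources.
hsa-miR-146a-5p: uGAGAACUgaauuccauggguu

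Among the rows held, the genes with the highest level for their length were those of the cytoskeleton, iron storage and glycolysis. They were joined by secreted factors and arrest genes. To compare levels between genes, each normalised count was divided by the length of the gene's merged exons in kilobases (kb). ACTB, which encodes beta-actin, was highest with a count per kb of 36468, 44590 and 37646 in A, B and C. The other cytoplasmic actin gene, ACTG1, followed at a mean count per kb of 35319 ± 4409 (SD, n = 3), although reads of near-identical actin copies may have been split between genes. The ferritin light chain gene FTL, whose product stores iron, reached 32987 ± 1511 per kb (SD, n = 3), and the glycolytic enzyme gene GAPDH 20994 ± 2591. ACTB lay above both ACTG1 and FTL in every library, the ranges of ACTG1 and FTL overlapped, and GAPDH lay below all 3 genes in every library. That order depends on the length used, with merged exons of 2981 bases for GAPDH and 878 for FTL. Before division GAPDH had a mean count of 62584, and FTL had 27544, 29171 and 30174 in A, B and C. Per-kb orders and ratios between genes, here and below, hold for merged exon length only. The per-kb ratio of FTL to FTH1, the heavy chain gene, was 6.996 ± 0.231, although FTL too has near-identical copies.

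**Figure D1:**
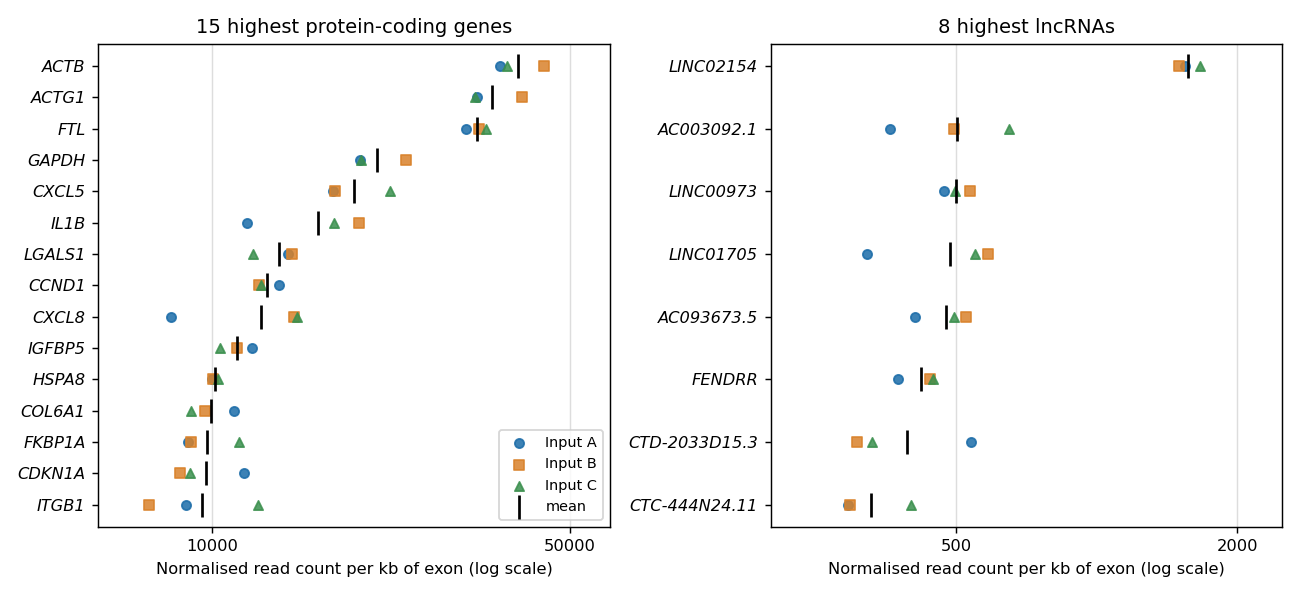
Normalised read count per kb of exon, on a log scale, for the 15 protein-coding genes (left) and the 8 lncRNAs (right) with the highest mean, with 1 symbol per Input library and a black bar at the mean of 3. Among the rows held, with few genes of initials M to Z, ACTB led at a mean of 39568 per kb. LINC02154 led the lncRNAs there at 1570 per kb, and CXCL5, IL1B and CXCL8 stood among structural and metabolic genes.

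Next in order came secreted factors. CXCL5, a chemokine that attracts neutrophils (chr4:73995642-73998779), had a count per kb of 17207, 17408 and 22278 in A, B and C. IL1B, the gene of interleukin-1 beta (chr2:112829751-112836903), had 11714, 19394 and 17322. The 2 genes overlapped in range, and the library that was lowest for IL1B was A by a wide margin. LGALS1, which encodes the sugar-binding protein galectin-1, had a mean of 13489 ± 1280 per kb (SD, n = 3). The cyclin D1 gene CCND1, whose product partners the kinases that start the cell cycle (chr11:69641087-69654474), had 13515, 12358 and 12492 per kb. CXCL8, which encodes interleukin-8 (chr4:73740506-73743716), had 8303, 14482 and 14684, so A alone stood apart from the other 2 libraries. IGFBP5, which binds insulin-like growth factors, followed at 11182 ± 818, and HSPA8, a constitutive chaperone gene, at 10114 ± 154. COL6A1 of collagen VI, the immunophilin gene FKBP1A, the cell-cycle inhibitor gene CDKN1A and the integrin gene ITGB1 closed the 15 highest, with means between 9568 and 9938 per kb that were not separated by their spread.

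Levels spanned several orders of magnitude. Over the 6036 protein-coding genes the median was 70.3 counts per kb, the quartiles were 13.4 and 210, and the 95th percentile was 889. There were 266 genes above 1000 per kb, 11 above 10000 and 253 below 1. The 10 highest genes together made up 12.6%, 14.4% and 13.2% of the summed per-kb level in A, B and C, and the 100 highest made up 34.8% ± 0.963 (SD, n = 3). These shares refer to the rows held. Among lncRNAs the median was 6.75 per kb and among pseudogenes 6.82.

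Among the rows held, the lncRNAs were led by LINC02154 (chrX:13266048-13303452), with a count per kb of 1545, 1498 and 1667 in A, B and C. That was well above the other lncRNAs held. Of all expressed genes, 7575 had initials A to L and 21 had initials M to Z, so lncRNAs with later initials are hardly represented. AC003092.1, LINC00973, LINC01705 and AC093673.5 followed with means between 476 and 502 per kb. FENDRR, known as a lung mesenchymal lncRNA that lies beside the FOXF1 gene and is transcribed away from it, had 375, 439 and 446 per kb. FOXF1, a transcription factor gene of lung mesenchyme, had 1461, 1715 and 1700 per kb, so both members of the pair were lowest in A. Of 39 listed lncRNAs with established names that the table held, 30 passed the rule, against 1016 of all 4570 lncRNAs in the table. Of the 39, GAS5 had 181 ± 43.7 per kb and DANCR had 103 ± 10.5. H19 and HOTAIR did not pass. The sources do not give the strand of counting, so reads of an antisense RNA and of its partner gene cannot be told apart.

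The labelled cell type was checked against markers. All 17 fibroblast identity genes in the table passed the rule, and 15 of them lay above the median of expressed protein-coding genes. Passing alone did not set this list apart, since 70.9% of all protein-coding genes passed and so did most epithelial and endothelial markers, and the lists differed in level. COL6A1, CD44, COL6A2 and FN1 led the fibroblast list, with mean counts per kb of 9938, 8570, 7862 and 4503. Collagen I genes COL1A1 and COL1A2 had 2885 ± 615 and 1429 ± 159 per kb (SD, n = 3), and DCN, which encodes the matrix proteoglycan decorin, had 98.3, 222 and 172 per kb in A, B and C. FN1, the fibronectin gene, had 5870, 4273 and 3364 per kb and was highest in A and lowest in C.

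Markers of other cell types were mostly low. Of 12 epithelial markers in the table, 10 passed the rule with a median of 6.84 per kb, and the cadherin gene CDH1 and the splicing factor gene ESRP1 did not pass. CLDN1, which encodes a tight-junction protein, was an exception within that list at 2363, 2052 and 2080 per kb, and KRT18, a keratin gene, stood at 313 ± 50.2. Of 11 endothelial markers 9 passed with a median of 9.23 per kb, ENG (1087 ± 137 per kb), which fibroblasts also express, stood apart, and EMCN had no read. Of 14 blood cell markers 7 passed with a median of 2.21 per kb, led by LCP1 and CD4, and CD53, CD3E and ITGAM did not pass. The summed level of the blood markers was 84.5, 156 and 188 per kb in A, B and C, of which LCP1 gave 18.4, 70.8 and 121. Of 9 neural and muscle markers 3 passed, and ENO2, a glycolysis gene as well, made up nearly all of their sum.

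**Figure D2:**
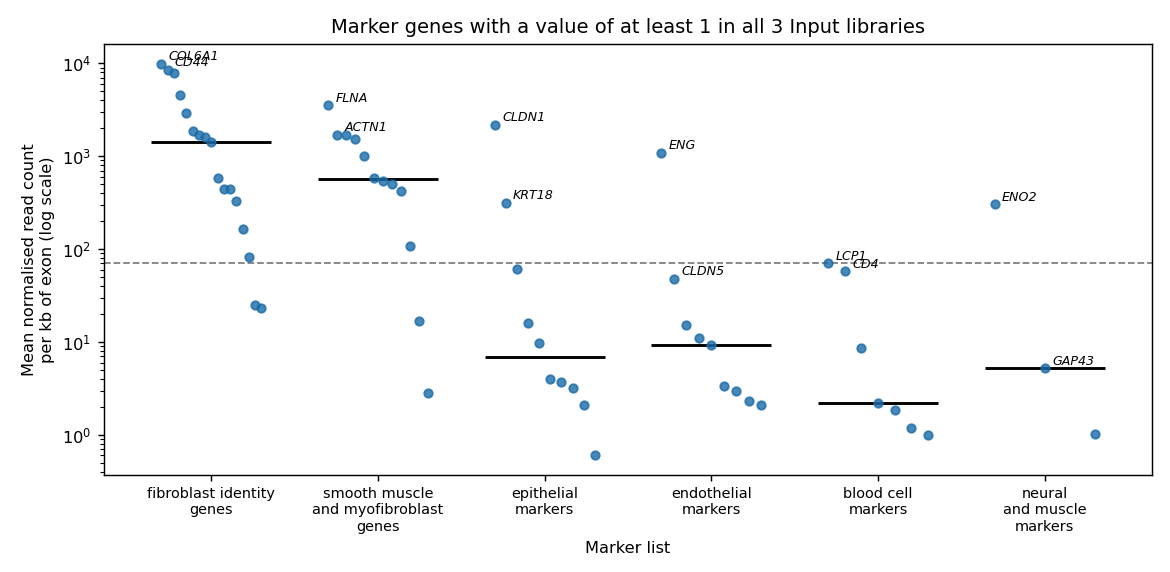
Mean normalised read count per kb of exon over 3 Input libraries, on a log scale, with 1 point per expressed marker gene, a black bar at each list's median and a dashed line at the median of all expressed protein-coding genes (70.3). The fibroblast list had a median of 1429 per kb, against 6.84 for epithelial, 9.23 for endothelial and 2.21 for blood cell markers, and CLDN1, ENG and ENO2 stand out of their lists.

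Genes of muscle-type contractile cells were expressed over a wide range, with 12 of 13 in the table passing. FLNA, an actin cross-linker gene, had 3669, 3910 and 3049 per kb in A, B and C. ACTA2, the smooth muscle actin gene that marks myofibroblasts, had 471, 565 and 485, and CNN1, a calponin gene of contractile smooth muscle, had 79.5, 120 and 127. DES, the desmin gene, did not pass. ACTA2 shares sequence with other actin genes, so its reads are uncertain.

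HOX genes, which record a cell's position along the body axis, were expressed unequally by cluster. In the HOXB cluster (chr17:48540894-48633572) 8 of 9 genes passed, led by HOXB5 with 828, 691 and 643 per kb, then HOXB6 at 381 ± 40.9 and HOXB2 at 332. In the HOXA cluster (chr7:27092993-27185223) 7 of 11 genes passed, and the highest, HOXA5, had 23.0, 21.9 and 30.5 per kb. HOXB5 exceeded HOXA5 by a per-kb ratio of 29.6 ± 7.68 (SD, n = 3). HOXC genes (chr12:53990624-54056030) passed in 4 of 7 cases with HOXC8 highest at 18.9 per kb, and neither of the 2 HOXD genes in the table passed. Among 40 FOX transcription factor genes 25 passed, and FOXF1, FOXQ1 and FOXD1 were highest at 1625, 520 and 492 per kb. The lung-endoderm factor FOXA2 did not pass.

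Genes of the RAS pathway and of its ERK output passed in 33 of 33 cases, against 70.9% of all protein-coding genes in the table, and 26 of them lay above the coding median. HRAS (chr11:532242-537287) had a count per kb of 4181, 4940 and 4683 in A, B and C, which differed by little and placed it among the highest of that list. Reads of an introduced RAS and of the cells' own HRAS could not be told apart in a table of gene totals.

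Genes that ERK signalling is known to induce lay at both ends of that list, whose median was 373 per kb. IER3, an immediate early gene, led the list at 4509, 5553 and 5484 per kb. The phosphatase genes DUSP5 and DUSP6, which switch ERK off, had 2177 ± 148 and 1499 ± 69.6 (SD, n = 3), and their libraries differed by little. FOSL1, which encodes the AP-1 subunit FRA-1, had 1566, 1665 and 1502 per kb and JUN had 1224, 1106 and 1130, whereas FOS, a transient early gene, had 15.3, 16.7 and 22.2. FOSL1 thus lay far above FOS in every library. Of 23 DUSP genes in the table, 18 passed.

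Among arrest and senescence regulators 35 of 36 passed, GATA4 being the one that did not. CDKN1A (chr6:36676460-36687339), the gene of the kinase inhibitor p21, had 11553, 8657 and 9055 per kb in A, B and C. CDKN2A, the gene of p16 and ARF, had 131, 135 and 134, and its neighbour CDKN2B, the gene of p15, had 237, 179 and 224. The per-kb ratio of CDKN1A to CDKN2A was 73.3 ± 13.0 (SD, n = 3). HMGA1, which encodes an architectural chromatin protein found in senescence foci, had 7161, 7281 and 6372 per kb, and HMGA2, its relative, had 737 ± 137.

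D-type cyclins were unequal, with CCND1 above CCND2 by a per-kb ratio of 10.4 ± 1.21 (SD, n = 3) and CCND3 at 183 ± 20.5 per kb. CEBPB, a transcription factor gene of the secretory programme, had 1202, 1190 and 1305 per kb. GLB1, whose product is the lysosomal galactosidase stained as a senescence marker, had 420, 351 and 309. DPP4, a surface protease gene, had 887 ± 127 per kb. LMNB1, which encodes lamin B1, was not analysed here.

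Cell division genes were low but present. All 63 in the table passed, with a median of 25.9 counts per kb against 70.3 for all expressed protein-coding genes, and 10 of them lay above that median. The highest were ECT2, a cytokinesis gene, at 213 ± 31.5 per kb and AURKA, a mitotic kinase gene, at 171 ± 8.12 (SD, n = 3). CCNB1, the cyclin B1 gene, had 165, 150 and 99.4 per kb, CDK1, its kinase, had 36.6, 24.8 and 19.4, and CCNA2, the cyclin A2 gene, had 83.0, 55.3 and 23.6. All 3 were highest in A and lowest in C.

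Chemokines had the highest summed level of the secreted-factor lists, at 37638 ± 6720 per kb (SD, n = 3), against 21117 ± 4657 for interleukins and colony-stimulating factors. Of 23 listed chemokine genes in the table, 17 passed. The 6 of the list that did not were CCL4, CCL5, CCL8, CCL16, CCL25 and CXCL9. By family, 11 of 12 CXC and 6 of 15 CC chemokine genes in the table passed. Most of the chemokine signal came from 1 cluster on chromosome 4, whose 6 genes (chr4:73740506-74099293) encode CXC chemokines with the ELR motif, the kind that attracts neutrophils. CXCL5 and CXCL8 led, as given above, and CXCL5 exceeded CXCL8 by a per-kb ratio of 1.597 ± 0.441 (SD, n = 3). CXCL1 had 3137, 5887 and 4107 per kb in A, B and C, CXCL3 had 370, 676 and 543, and CXCL2 had 154, 326 and 214. CXCL6 was the lowest at 123, 141 and 91.8 per kb. Except for CXCL6, each of these genes was lowest in A. CXCL1, CXCL2 and CXCL3 are close copies of each other, so their separate values are uncertain.

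The promoter sequences of the 6 genes are shown because the cluster gave most of the chemokine signal and because its genes differ widely in level. Each runs from 120 bases before to 20 bases after the RefSeq start, on the gene's own strand (GRCh38.p14), and capitals mark matches to GGNNTTTCC, a short form of the NF-kappaB motif, read on both strands. The windows are chr4:73998658-73998797 (minus strand) for CXCL5, chr4:73740449-73740588 (plus) for CXCL8, chr4:73869273-73869412 (plus) for CXCL1, chr4:74038670-74038809 (minus) for CXCL3, chr4:74099176-74099315 (minus) for CXCL2 and chr4:73836558-73836697 (plus) for CXCL6.
CXCL5: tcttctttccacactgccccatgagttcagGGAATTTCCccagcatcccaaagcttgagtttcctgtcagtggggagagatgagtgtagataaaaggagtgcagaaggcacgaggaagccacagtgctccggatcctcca
CXCL8: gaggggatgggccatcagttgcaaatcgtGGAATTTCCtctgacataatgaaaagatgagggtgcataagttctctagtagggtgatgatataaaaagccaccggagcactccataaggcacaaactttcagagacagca
CXCL1: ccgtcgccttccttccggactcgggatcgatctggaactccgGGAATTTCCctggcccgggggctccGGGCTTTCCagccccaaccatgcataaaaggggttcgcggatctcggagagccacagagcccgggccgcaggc
CXCL3: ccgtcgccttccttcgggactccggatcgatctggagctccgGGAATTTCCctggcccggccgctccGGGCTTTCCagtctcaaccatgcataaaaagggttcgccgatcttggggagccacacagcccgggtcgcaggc
CXCL2: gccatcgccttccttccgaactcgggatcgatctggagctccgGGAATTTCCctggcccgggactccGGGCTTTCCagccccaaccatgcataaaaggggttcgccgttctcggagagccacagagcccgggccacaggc
CXCL6: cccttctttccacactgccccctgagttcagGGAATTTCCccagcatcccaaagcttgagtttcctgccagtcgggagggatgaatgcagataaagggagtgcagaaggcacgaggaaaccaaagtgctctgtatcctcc

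A match was present in all 6 windows, once in CXCL5, CXCL8 and CXCL6 and in 2 copies in CXCL1, CXCL2 and CXCL3. The first match began 77 to 91 bases before the start. The same letters were found in 6.26% of all 35116 RefSeq windows, which run from 250 bases before to 50 after a start, and in 6.34% of the windows of expressed protein-coding genes, so expressed genes as a whole held it about as often as all genes. The highest and the lowest of the 6, CXCL5 and CXCL6, both held 1 match at nearly the same distance, 90 and 89 bases before the start. The windows of CXCL5 and CXCL6 are near-identical in sequence, as are those of CXCL1, CXCL2 and CXCL3. The 6 windows are therefore not independent cases, and their count cannot be weighed against the share over all windows. Among listed expressed genes with a window, 9 of 14 chemokine genes (the 6 included) held a match. So did 2 of 8 interleukin and colony-stimulating factor genes, IL6 with 1 and IL32 with 2, while IL1B had none in this window. GGNNTTTCC was kept out of 4 motifs searched, after the matches had been seen. The other 3 were found in 4, 1 and 1 of the 6 windows, namely GGGNNNNCC (52.8% of all windows), TGANTCA (7.71%) and TATAAA (11.5%). A match describes letters and is not a measured binding site.

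The 6 CC chemokine genes that passed had a summed level of 841 ± 109 per kb (SD, n = 3), against 36710 ± 6595 for the ELR cluster, although CCL3 lay above CXCL2 and CXCL6 in every library. CCL3 had 363, 495 and 593 per kb in A, B and C, CCL20 had 174 ± 18.7 (SD, n = 3) and CCL2, which attracts monocytes, had 197, 143 and 142. CCL3 has a near copy, CCL3L3, so its value is uncertain. The interferon-induced chemokine CXCL10 had 51.6, 67.9 and 117 per kb, close to the coding median, and CXCL12, a homeostatic chemokine of fibroblasts, had 8.46, 4.38 and 2.71.

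Of 17 listed SASP interleukin and colony-stimulating factor genes in the table, 16 passed, and OSM had no read. Over the whole interleukin family, 17 of 26 genes in the table passed, with a median of 11.9 per kb. IL1B stood far above the others, exceeding IL1A by a per-kb ratio of 25.3 ± 7.54 and IL6 by 20.9 ± 2.88 (SD, n = 3). LIF, CSF2 and IL6, which act on inflammation and blood cell growth, had mean counts per kb of 1065 ± 116, 1051 ± 217 and 766 ± 119. IL1A, the gene of interleukin-1 alpha, a separate membrane-bound cytokine known to start the secretory programme in senescence, had 672, 597 and 667 per kb. CSF3 had 466, 881 and 509, and IL11, a fibrosis-linked cytokine gene, had 387, 621 and 594. These 6 genes lay within the range from 534 to 1065 per kb, and neighbours in that order overlapped in their library values. IL24, IL32 and IL33 lay below the coding median at 46.7, 47.2 and 11.9 per kb, and IL18 was lowest at 0.770.

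**Figure D3:**
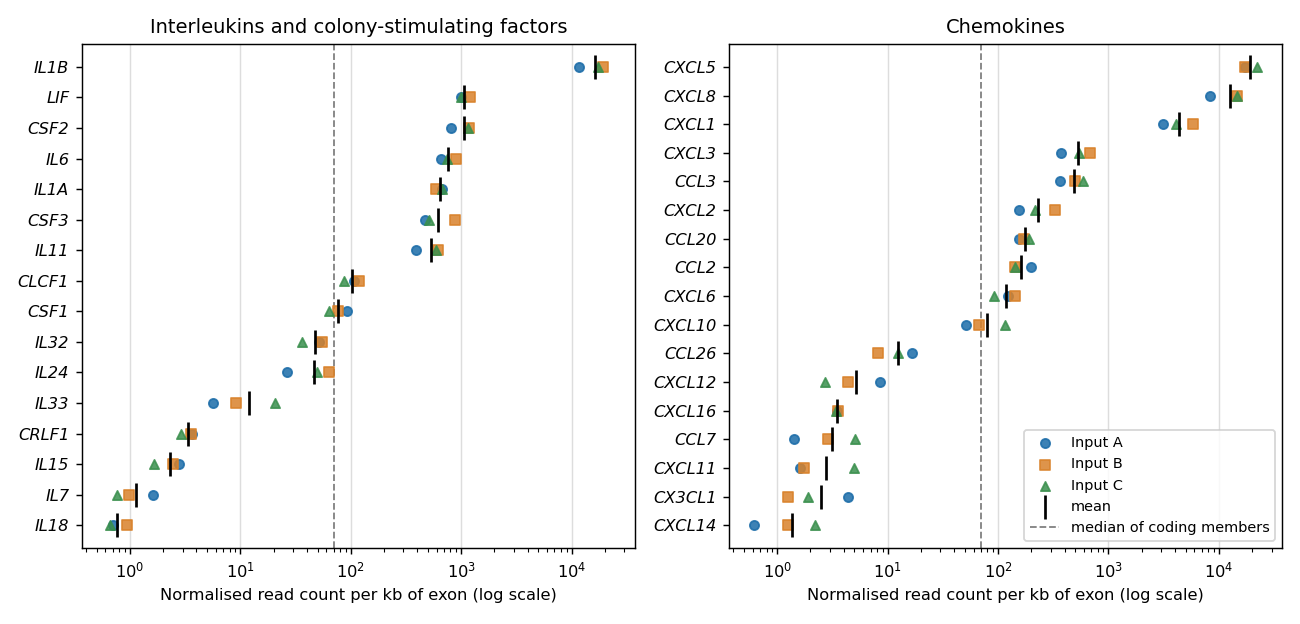
Normalised read count per kb of exon, on a log scale, for expressed genes of the interleukin and colony-stimulating factor list (left, 16 genes) and the chemokine list (right, 17 genes), with 1 symbol per Input library, a black bar at the mean and a dashed line at the median of expressed protein-coding genes (70.3). IL1B, CXCL5 and CXCL8 exceed 10000 per kb on average. Library A is the lowest in 11 of the 17 chemokines, against 33.15% of all expressed genes.

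The interleukin-1 locus (chr2:112773915-113134016) also held expressed antagonists at lower levels. Of its 9 genes in the table, 6 passed. IL36RN, which encodes an antagonist of interleukin-36, had 44.6, 156 and 213 per kb in A, B and C, and IL1RN, the gene of the interleukin-1 receptor antagonist, had 17.7, 48.0 and 71.7. The per-kb ratio of IL1B to IL1RN was 663, 404 and 242 in A, B and C, so IL1B was in excess in each library by a factor that differed widely. IL36B and IL37 had 30.3 and 11.6 per kb, and IL36G had no read. IL36RN, IL1RN, IL36B and IL37 were lowest in A, as IL1B was, whereas IL1A was not.

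Of 34 interleukin receptor chains 22 passed. IL13RA1 led at 745 per kb, followed by the decoy receptor gene IL13RA2 with 445, 654 and 893 in A, B and C. IL1R1, the signalling receptor of interleukin-1, had a mean of 211 per kb and IL6R, the ligand-binding chain for interleukin-6, had 68.0.

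Growth factor genes were led by members of the TGF-beta superfamily and by matricellular proteins, with 43 of 51 genes passing. INHBA, whose product forms activin A, had 3659, 3577 and 4054 per kb in A, B and C, and BMP2 had 2378, 2771 and 2203. GDF15, a stress-induced factor gene, had 1965, 1328 and 1779. CTGF and CYR61, matricellular genes known as YAP targets, had means of 3137 ± 312 and 1651 ± 141 per kb (SD, n = 3). FSTL1, DKK3 and GREM1, from the same list of growth factors and their antagonists, had 2000 ± 41.7, 1580 ± 266 and 1277 ± 201.

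Ligands of receptor kinases ranged widely. FGF2 had 935, 809 and 1289 per kb and FGF5 had 705 ± 135, while 10 of 18 fibroblast growth factor genes did not pass. The EGF receptor ligand genes AREG and EREG had 588 ± 176 and 430 ± 53.3 per kb. HGF, the ligand of MET, had 214, 359 and 454 and KITLG, the ligand of KIT, had 465, 481 and 650, and both were lowest in A and highest in C. IGF1 did not pass, whereas IGF2 had 327 ± 61.7 per kb.

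IGF binding protein genes passed in 7 of 8 cases and differed widely in level. IGFBP5 had 11994, 11197 and 10357 per kb in A, B and C and IGFBP4 had 9086, 8020 and 6793. IGFBP5 exceeded IGFBP4 by a ratio of 1.41 ± 0.103 (SD, n = 3). IGFBP7, linked to RAS-driven arrest, had 1280, 1204 and 1062 per kb, and IGFBP3 had 582, 295 and 311, with A apart from the others. IGFBP1, a liver form, had 2.84.

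Secreted and lysosomal proteases and their inhibitors passed in 26 of 27 cases. CTSB, the cathepsin B gene, had 7623, 7194 and 7312 per kb in A, B and C, and CTSL, of cathepsin L, had 1373, 1811 and 2273. F3, which encodes tissue factor, the starter of blood clotting, had 4851, 7302 and 8988. F3 and CTSL were lowest in A and highest in C, while CTSB differed by little. The membrane protease genes ADAM9 and ADAM19 had means of 1524 ± 265 and 1326 ± 253 per kb. CST3, which encodes the cathepsin inhibitor cystatin C, had 1581, 1298 and 1000.

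All 58 lysosome genes in the table passed, against 70.9% of all protein-coding genes, and 47 lay above the coding median. CD63, a membrane protein gene of lysosomes and exosomes, had 4692, 4758 and 5280 per kb, and LAMP1 had 1180 ± 147 (SD, n = 3). Of 21 subunit genes of the V-type proton pump, which acidifies lysosomes, 20 passed, and ATP6V1B1, of a kidney form, did not.

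Among matrix genes, 35 of 43 collagen chains passed. COL6A1 and COL6A2, of collagen VI, stood highest, with COL6A1 at 11020, 9706 and 9086 per kb and COL6A2 at 8304, 8289 and 6994 in A, B and C. COL6A3, also of collagen VI, had 2397, 1770 and 1473 and lay below COL1A1 in every library. COL6A1 exceeded COL1A1 by a per-kb ratio of 3.52 ± 0.564 (SD, n = 3). COL12A1, COL4A1 and COL3A1 had means of 1463, 1120 and 441 per kb. COL2A1, a cartilage chain gene, did not pass. All 12 laminin chain genes passed, led by LAMC1 and LAMB1 at 1635 and 1369 per kb. Of 25 integrin subunit genes 19 passed, with ITGB1 at 8900, 7526 and 12276 and ITGA5, its partner in the fibronectin receptor, at 2478, 2702 and 2281. The blood cell integrins ITGAM and ITGAL did not pass.

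Interferon response genes were modest, with 33 of 39 passing at a median of 61.9 per kb. IFITM3, a restriction factor gene, led at 974, 993 and 946 per kb in A, B and C. B2M, which encodes the light chain of class I antigen-presenting molecules, had 1522 ± 137 per kb (SD, n = 3). Of 10 class II genes 3 passed, with HLA-DPB1 highest at 12.3 per kb. HLA-DRA and CD74 did not pass.

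A few genes stood high within families that were otherwise low. GABRA2, which encodes a subunit of the GABA receptor of neurons, had 681, 561 and 645 per kb in A, B and C, whereas the next of the 7 expressed GABA receptor genes, GABRB1, had 18.1. Of 15 such genes in the table, 8 did not pass. CYP26B1, which encodes an enzyme that degrades retinoic acid, led the cytochrome P450 genes with 621, 849 and 642 per kb, and 19 of 37 of them passed. The cadherin genes were not such a case. Among 19 of them 9 passed, and 4 of these lay above the coding median. CDH11, CDH13, CDH2 and CDH6 lay between 127 and 183 per kb, below the upper quartile of expressed protein-coding genes (210).

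Genes of the late cornified envelope, whose products line the outermost cells of the epidermis, were expressed in these fibroblast libraries. Of 16 such genes in the table, 11 passed, all within 1 span of chromosome 1 (chr1:152565654-152806628). LCE1F had a normalised count of 621, 1715 and 1679 in A, B and C, and LCE3D had 394, 1779 and 2121. LCE2C had 763, 1316 and 1802, and LCE2A had 736, 1232 and 1643. Per kb their means ran from 2033 to 3749, above the 95th percentile of expressed protein-coding genes (889). In each of the 11 genes A was the lowest library, against 33.15% of all expressed genes, but this set was chosen after values had been seen. LCE1C, with counts of 1.23, 1.66 and 2.60, lay near the limit, so its order rests on very few reads. With a threshold of 10 in each library, 8 of the genes passed. These genes are short and similar to one another, so reads may have been split between them.

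Other genes of the same span were also lowest in A and highest in C. LINC00302 (chr1:152655477-152656804) had counts of 38.6, 141 and 193, and KPRP, a keratinocyte proline-rich protein gene, had 21.4, 75.7 and 121. IVL, which encodes involucrin of the same envelope, had a mean of 202 per kb. The filaggrin genes FLG and FLG2, the related gene HRNR, and LCE5A did not pass. Of 28 keratin genes of any tissue in the table, 13 passed, against 70.9% of all protein-coding genes. Those 13 had a median of 4.76 per kb, and KRT1, an epidermal keratin gene, did not pass. Epidermal keratins were not counted apart from the others.

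Replication-dependent histone genes, whose mRNAs are made in S phase and mostly lack a poly(A) tail, were measurable in these libraries depleted of ribosomal RNA. Of 60 in the table, 58 passed, and 47 of these lay above the coding median. HIST1H1C led with a count per kb of 1685, 1675 and 1108 in A, B and C. HIST1H3B had 1614, 969 and 437, HIST1H1B had 1398, 951 and 367, and HIST1H1E had 620, 436 and 163. Of the expressed histone genes, 49 lay in the HIST1 cluster (chr6:26017085-27893843). The variant histone genes H3F3B (466 ± 43.8 per kb) and H2AFZ (608 ± 92.4; SD, n = 3), which are expressed outside S phase too, varied less. Histone copies are near identical, so single values are uncertain.

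The libraries differed in an ordered way for a few gene sets. For each gene, the deviation of log2(value + 1) in a library from its mean over the 3 libraries was taken, and the median over the set was used. For replication-dependent histones it was 0.81, 0.14 and -0.98 in A, B and C, and for cell division genes 0.33, -0.02 and -0.31. A was the highest and C the lowest library for 53 of 58 histone genes and 42 of 63 division genes. Over all 7598 genes that order was seen in 19.04%, and the reverse order in 21.4%. The reverse order was seen in none of the 58 histone genes and in 2 of the division genes. The replication-dependent histone set was chosen after values had been seen, so its counts are a description only.

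Late cornified envelope genes had the opposite pattern, with medians of -0.97, 0.23 and 0.60, and 9 of 11 had A lowest and C highest. This set was chosen after these values had been seen, so its order describes the genes chosen and supports nothing further. For chemokines the medians were -0.38, 0.01 and 0.08, and for interferon response genes -0.21, 0.03 and 0.20. HSPA and HSP90 chaperone genes had -0.22, -0.09 and 0.25, with 10 of 16 in the order of A lowest and C highest. HSP90AA1 had 3345, 3792 and 6414 per kb, whereas HSPA8 varied little. Lists for lysosomes, housekeeping and ERK outputs stayed between -0.08 and 0.08 in every library. With 1 group of 3 libraries these differences have no test, and what set the libraries apart was not tested.

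**Figure D4:**
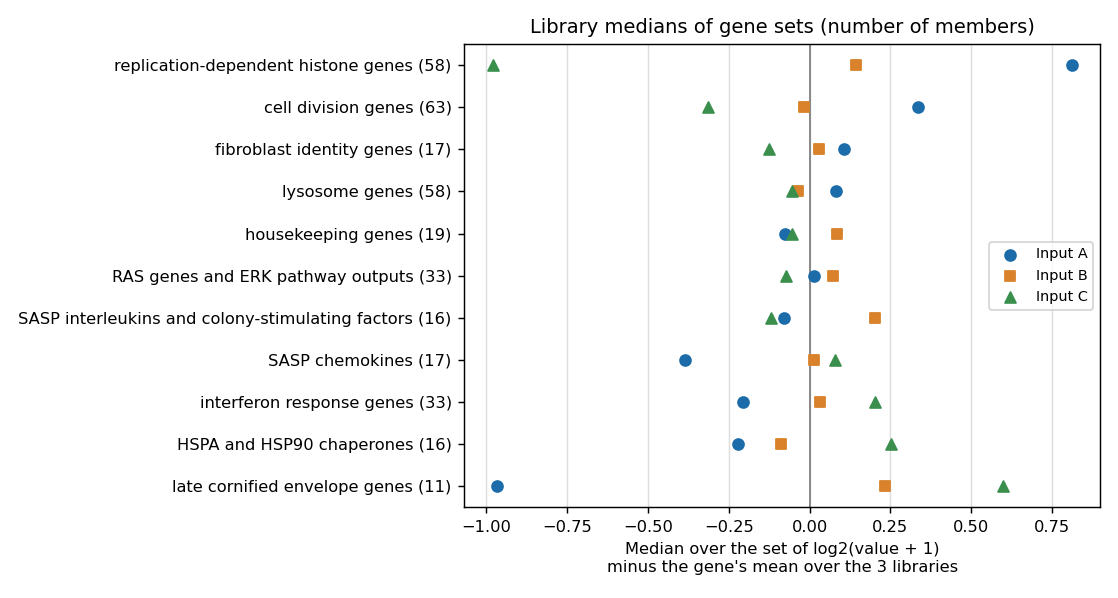
Median deviation of log2(value + 1) from each gene's mean over the libraries, for 11 gene sets with their number of expressed members, with 1 symbol per Input library and a grey line at 0. Histone and cell division genes are highest in A and lowest in C (0.81 and -0.98 for histones), late cornified envelope genes are lowest in A (-0.97), and lysosome and housekeeping genes lie near 0. The histone and late cornified envelope sets were chosen after values had been seen.

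Across genes the libraries were close but not duplicates. Pearson's r of log2(value + 1) over the 7598 genes was 0.989 for A and B, 0.983 for A and C and 0.987 for B and C, as a description across genes, which are not independent replicates. A chi-square of the read counts per degree of freedom was 12.5, 25.3 and 17.2 for the same pairs, far above the 1 that resampling of 1 library would give. The median SD of log2(value + 1) over the 3 libraries was 0.24. For 1419 genes with a mean count of 1 up to 10, the median coefficient of variation was 37.9% against 40.5% for counting error alone. For 2671 genes from 100 up to 1000 it was 13.9% against 4.71%, and for 103 genes from 10000 up it was 10.0% against 0.664%. The median spread thus lay near the counting error for low genes and far above it for high genes. Low genes entered only with a value of at least 1 in every library, which trims their spread. The comparison therefore cannot show that low genes vary by counting error alone.

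**Figure D5:**
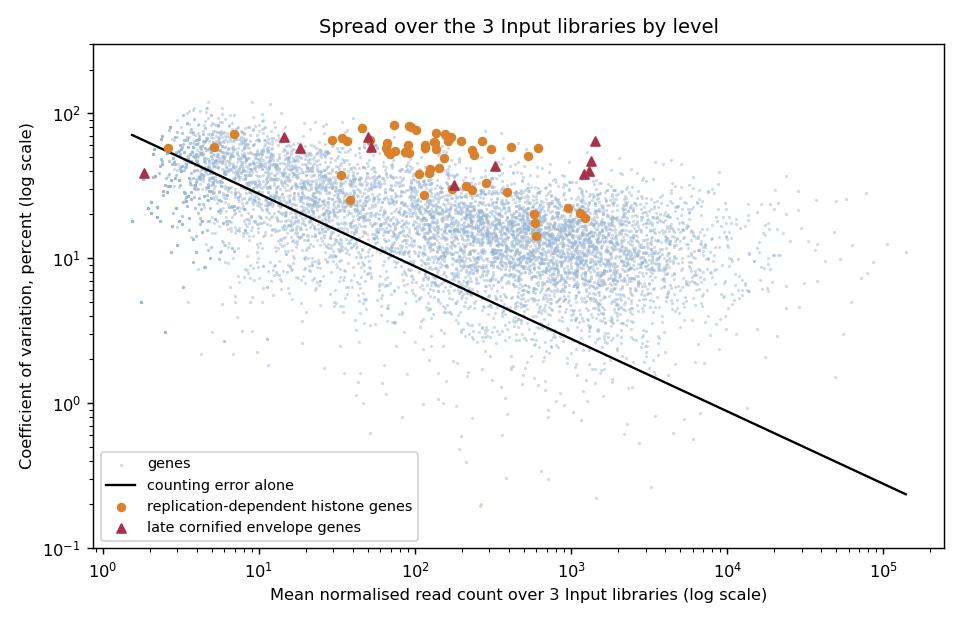
Coefficient of variation over 3 Input libraries in percent against the mean normalised read count, both on log scales, with 1 point per gene, histone genes as orange circles and late cornified envelope genes as red triangles. The black line is the variation from read counting alone, which genes with a mean of at least 100 exceed on the median (12.6% against 3.39%).

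Among genes with a mean count of at least 100, the 10 with the largest spread fell into both orders of libraries. LCP1, which encodes the actin bundler L-plastin, was first with counts of 93.1, 358 and 614 in A, B and C and an SD of 1.40 on the log2 scale. LCE3D, LINC00302 and IL36RN shared its order. GDA, of guanine deaminase, had 48.4, 151 and 248. The others were the histone genes HIST1H2BI, HIST1H4D, HIST1H3G, HIST1H3C and HIST1H3I, all highest in A, such as HIST1H2BI with 183, 91.5 and 29.5.

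The 10 genes with the smallest spread had SDs of 0.0028 to 0.0076 on the log2 scale. They were C20orf24, CNPY3, ARNT, ARHGAP35, HAGH, CDK5RAP1, GBAS, C6orf203, BUD13 and HADHB. ARNT, which encodes a partner of hypoxia and dioxin receptor factors, had counts of 1442, 1435 and 1440. C20orf24 had 260.3, 261.1 and 260.2. They are the lowest of 4349 genes ranked over 3 libraries, and whether they are stable beyond that choice was not tested.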

How the data were processed

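RNA-seq of 3 Input libraries was described, and the 3 miR-CLIP libraries of the series were left out. The kit was KAPA RNA HyperPrep with a RiboErase step, which removes ribosomal RNA, per the labels' protocols. Build GRCh38 and the tools STAR 2.5.1b, Trimmomatic 0.35 and DESeq2 1.22.2 are named, with no role or order, per the submitters' processing notes. The sources used here do not give the counting program, its strand setting or the gene annotation. The authors deposited 1 signal value per gene and library. In the Input columns 100% of values were, to within 1e-06, whole multiples of the lowest nonzero value in that column, so the signal is that of read counts scaled by 1 factor per library. The column letters A, B and C do not occur in the labels, so a column was assigned to the Input group but not to a numbered sample.

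Gene classes, coordinates and merged exon lengths came from GENCODE release 29 (GRCh38), in which 18143 of 18234 identifiers were found. Of these 16967 had the same version and coordinates, and 24 expressed genes had no entry there. Levels per kb divide the value by merged exon length. Spread was the SD of log2(value + 1). Counting error was the Poisson error computed from a gene's mean value and the mean worth of 1 read over the 3 libraries. One group of libraries allows no contrast, so no test was run, and no p-value is given. Computation used Python 3.11.15, numpy 2.4.6, pandas 2.3.3 and scipy 1.17.1, and the statistics were tested on simulated data.

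The rule, the 24 gene lists and the 60 gene families were chosen with earlier results of these data known. Patterns for 7 families (integrins, FGF receptors, interleukins, interleukin receptors, glutamate receptors, kinesins and initiation factors) were tightened after values had been seen, to drop symbols outside the family. The cornified envelope list, the interleukin-1 locus list, and the replication-dependent histone, late cornified envelope and ELR chemokine sets were also chosen after values had been seen, as was the motif. Genes named were the 15 protein-coding and 8 lncRNA genes highest per kb, list and family members by level, the 10 most and least variable genes with a mean of at least 100, and a preset set of RAS and senescence genes. Alternatives were thresholds, lengths, pseudocounts, rescaling and leaving out each library. Some results of the preset genes are not reported here.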

Additional observations from a re-analysis of the deposited data

How the results depend on the processing

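The number of expressed genes was 7598, and it lay between 5874 (a threshold of 10 in each library) and 8927 (a mean of at least 1) under the alternatives, with 7760 to 8058 when 1 library was left out. Members of the gene lists (552) and of the families (955) changed by less than 1.5 times under each alternative. Of 89 single sets, 17 changed by more than that at the threshold of 10, 5 with the mean rule, 1 without library A and 0 without B, without C or after rescaling. The share of the 10 highest genes, 13.4%, was 10.1% with no length correction and 12.9% to 13.8% when a library was left out. The share of the 100 highest, 34.8%, was 35.8% with the longest transcript as length, 32.2% with no length correction and 34.3% to 35.3% when a library was left out. The median spread, 0.24, was 0.21 at the threshold of 10, and 0.17 to 0.23 when a library was left out, lowest without C. That threshold keeps fewer low genes.

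Of 261 library medians of gene sets recomputed with another pseudocount, threshold or scaling, 258 moved by less than the spread over libraries. At the threshold of 10 the blood cell markers had -0.63 in A and 0.46 in C, against 0.20 and -0.16 before, and the neural and muscle markers -0.20 in C, against 0.13. Few genes of these lists pass that threshold, so nothing was read from their medians. Values for the 5 sets chosen after seeing the data were recomputed in the same way. No paired analysis was possible because 1 group was described and no result comes from a test. Depth limits the low genes: below a mean count of 10 the median spread was near that of counting error. Those genes had already been chosen for a value of at least 1 in every library.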
